A study of Mus musculus with 3 samples.

Results

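Ribosomal protein genes served here as a set of genes that nearly every cell transcribes, against which the chromatin occupancy of the cofactor FOG2 in the embryonic heart could be read. The set held the 89 protein-coding genes whose RefSeq symbol is Rpl or Rps followed by a digit, with Rplp0, Rplp1, Rplp2 and Rpsa, and without the Rps6k kinases and pseudogenes, out of 21631 protein-coding genes on the autosomes and the X chromosome. It comprised 43 genes of the large subunit, 31 of the small subunit, the 3 genes of the acidic stalk, and 12 paralogs, retrogenes or genes that share only the name (Rpl3l, Rpl7l1, Rpl10l, Rpl22l1, Rpl32l, Rpl36al, Rpl37rt, Rpl39l, Rps19bp1, Rps23rg1, Rps27l and Rps27rt). The question was whether a promoter of this always-on kind by itself attracts FOG2 peaks. Expression was not measured in these files, so the activity of the genes in this tissue is background knowledge and not a result.

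FOG2, encoded by Zfpm2, is a zinc finger cofactor that acts by binding GATA factors, and it is needed for the heart to form. Ribosomal proteins are the protein components of the cytosolic ribosome, and an assembled particle takes a single copy of almost every one. Their promoters typically start transcription at a C within a pyrimidine tract, the TOP signal through which the mTOR pathway controls translation of these mRNAs. ETS factors and YY1 are known regulators of many such promoters.

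Chromatin came from heart ventricles of mouse embryos at E12.5, with about 20 ventricles pooled for a replicate. Per the labels' protocols the mice were Fog2flbio/flbio;Rosa26BirA/BirA, homozygous both for a biotin-tagged Fog2 allele and for the bacterial biotin ligase BirA at Rosa26, while the genotype label reads WT and the antibody label FOG2. The 2 pulldown libraries and the 1 input library all came from such ventricles, so no pulldown from untagged hearts was analysed here. Whole ventricle holds muscle, endocardial, epicardial and blood cells, and the peaks do not tell them apart. The authors deposited a single list of 6166 peaks for the pooled pulldown, so no value below has a replicate spread and no test between libraries was possible. Of the muscle marker genes Tnnt2, Myh6, Myh7, Actc1, Myl7, Myl2 and Ttn, 6 of 7 had a peak assigned (Myl7 had none), against 13.6% of all protein-coding genes. The blood genes Hba-a1, Hbb-bt and Ptprc had none. At the all-gene share so few genes would hardly hold any, so this makes no contrast between cell types.

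FOG2 summits, the highest points of the peaks, were assigned to few ribosomal protein genes. With each summit given to the nearest protein-coding gene body within 100 kb, 2 of 89 ribosomal protein genes had one (2.25%), against 13.6% of all protein-coding genes. Both were genes of the small subunit, Rps29 and Rps24. None of the 43 large subunit genes, the 3 stalk genes or the 12 paralogs and name-sharing genes had an assigned summit. No summit lay inside the body of any of the 89 genes, against 8.31% of all genes. Among genes no longer than the longest of the 89 the share was 1.01%, so a count of 0 lay near it.

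Neither of the 2 assigned summits lay at a promoter. The peak given to Rps29 (chromosome 12, gene 69157722 to 69159186) spanned 69114649 to 69114911, and its summit was 42.95 kb from the gene body. It was 8.70-fold over control and rested on 13 recovered pulldown fragments (95% Poisson interval 6.92 to 22.2, counting error only). Rps29 is a small protein of the 40S head. The next coding gene, Lrr1, was 54.0 kb from this summit, and the pseudogene Gm7868 was only 8.33 kb away. The peak given to Rps24 (chromosome 14, gene 24490678 to 24496960) spanned 24575122 to 24575541, and its summit was 78.3 kb beyond the 3′ end of the gene. It was 7.11-fold over control with 12 fragments (6.20 to 21.0). The lncRNA gene 4931403M11Rik lay nearer to it, at 42.2 kb, and the next coding gene, Polr3a, at 88.2 kb.

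The list had a median of 6.39-fold with quartiles of 5.41 and 8.66, so the Rps29 summit lay just above the upper quartile and the Rps24 summit between the median and that quartile. They ranked 1489 and 2421 of 6166 by fold, and their fragment intervals overlapped, so no order between them was detectable at this depth. When genes of any biotype could receive a summit, both went to noncoding neighbours and 0 of 89 ribosomal protein genes had one. With the limit lowered to 10 kb the count was also 0. The summit just outside the limit was nearest to Rpl34, 170 kb away, at 11.95-fold with 18 fragments (10.7 to 28.4).

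No called peak lay at the gene starts. None of the 89 genes had a summit within 1 kb of a start, against 0.888% of all protein-coding genes, and none had one within 0.5 kb, against 0.633%, within 5 kb, against 2.57%, or within 10 kb, against 4.37%. The first 3 genes with a summit came within 25 kb of a start, against 9.46% of all genes, and 11 had one within 50 kb, against 16.9%. At the rates for 1 kb and 5 kb, 0.790 and 2.28 of 89 genes would have had one, so a count of 0 lay within 1 gene of the background at 1 kb and within 3 at 5 kb. Starts came from RefSeq for 69 of the 89 genes, and both ends of the gene body were used for the other 20. Peak intervals, in place of summits, also gave 0 genes within 1 kb. The list holds only what the authors' peak caller passed, down to 3.01-fold and 5 fragments, so weaker occupancy at these starts would not be seen.

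**Figure D1:**
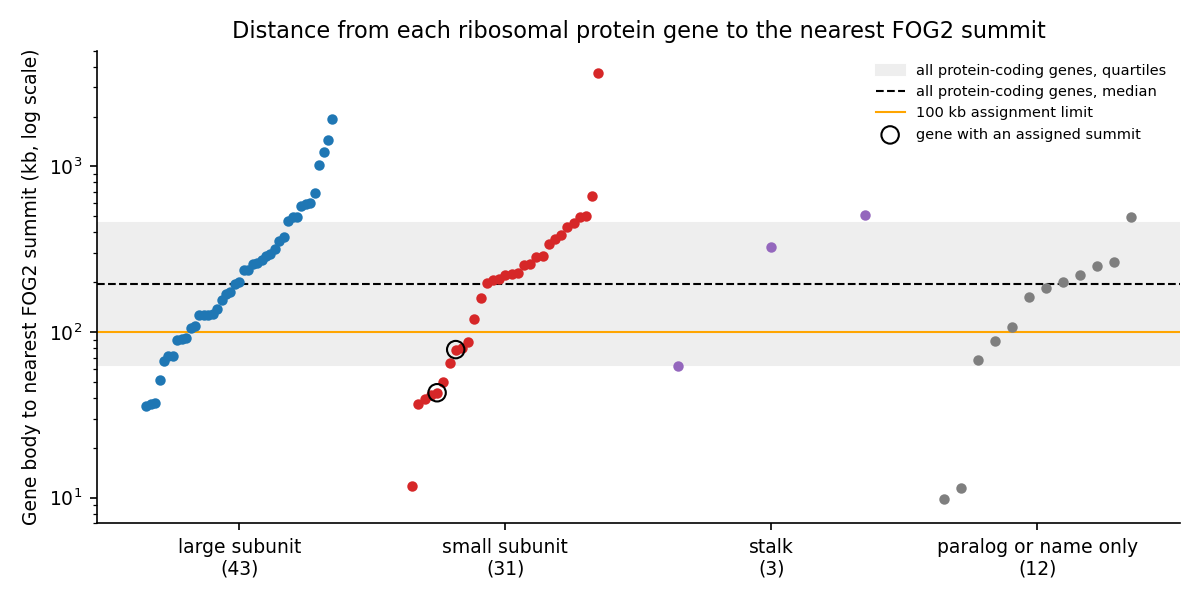
Distance in kb (log axis) from the body of each ribosomal protein gene to the nearest FOG2 summit, by group, with 1 point a gene and rings on the 2 genes with an assigned summit. The points start at 9.79 kb and centre near the all-gene median of 196 kb (dashed line), with the all-gene quartiles as the grey band.

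Over longer distances the ribosomal protein genes lay about as far from a summit as other genes. The distance from gene body to nearest summit had a median of 206 kb (quartiles 89.3 and 354 kb), against 196 kb (63.0 and 456 kb) over all protein-coding genes. A summit lay within 100 kb of 25 of the 89 genes, or 28.1% against 33.3% of all genes. Of these 25, 23 had no summit assigned to them, because another gene was nearer, and in 17 of the 23 the summit sat inside that other gene. Within 1 kb of the body the count was 0 of 89 against 8.69% of all genes, within 5 kb 0 against 9.81%, and within 10 kb 1 against 11.1%. It was 3 within 25 kb against 15% and 11 within 50 kb against 21.6%. These all-gene shares include genes with much longer bodies, and a summit inside a body counts as near. The median was 200 kb for the large subunit (nearest gene at 35.6 kb), 220 kb for the small subunit (nearest at 11.7 kb) and 174 kb for the paralogs and name-sharing genes (9.79 to 495 kb). The 3 stalk genes lay at 62.3 kb (Rplp0), 327 kb (Rplp1) and 506 kb (Rplp2), and the groups overlapped throughout.

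Of the 4 genes closest to a summit, 3 had that summit inside another gene. Rps19bp1, which encodes a protein that binds RPS19 and is not itself part of the ribosome, lay 9.79 kb from a summit inside Mief1 (6.42-fold, 11 fragments). Rps27rt, a retrogene, lay 11.4 kb from a summit inside Osbpl10 (9.02-fold, 19 fragments). Rps28, a small protein of the 40S subunit, lay 11.7 kb from a summit inside Kank3 (6.25-fold, 13 fragments). Rpl27 of the large subunit followed at 35.6 kb from a summit given to Brca1 (6.37-fold, 17 fragments). The first 3 genes lay within 12 kb of a summit, and no other gene came closer than Rpl27.

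The strongest peak near any of the 25 genes was 23.1-fold with 58 fragments (44.0 to 74.98). It lay 36.9 kb from Rps23, which encodes a protein of the decoding centre, but inside Atp6ap1l. The other 23 summits that were nearest to one of the 25 genes were between 4.06-fold and 9.02-fold. Rps29 and Rpl36al shared the same nearest summit.

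Among the genes far from any summit were Rpl21 at 1435 kb and Rpl35 at 1221 kb. Rpl21 is the 1 ribosomal protein gene that lies between consecutive listed peaks with a running number missing between them, and 17 numbers are missing from the deposited list in all. Those flanking peaks were 4000 kb apart, so where the missing peak lay is not known. Rpl3l, a paralog of Rpl3 made in heart and skeletal muscle, lay 265 kb from the nearest summit.

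The wider neighbourhoods held as many peaks as those of other genes. A median of 2 summits lay within 500 kb of the middle of a ribosomal protein gene, the same as over all protein-coding genes. No summit lay within 500 kb of 12 of the 89 genes (13.5%), against 23.7% of all genes. For 4 ribosomal protein genes described here the nearest summit belonged to a gene of striated muscle. For Rpl8 it was given to the myoglobin gene Mb (109 kb from Rpl8, 9.56-fold, 26 fragments). For Rpl28 it was given to the troponin gene Tnni3 (271 kb, 5.31-fold, 12 fragments). Rpl19 and Rpl23 shared a summit given to Tcap, which encodes a cap protein of titin (354 kb and 602 kb, 5.67-fold, 8 fragments). These neighbours were named after their values were seen.

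**Figure D2:**
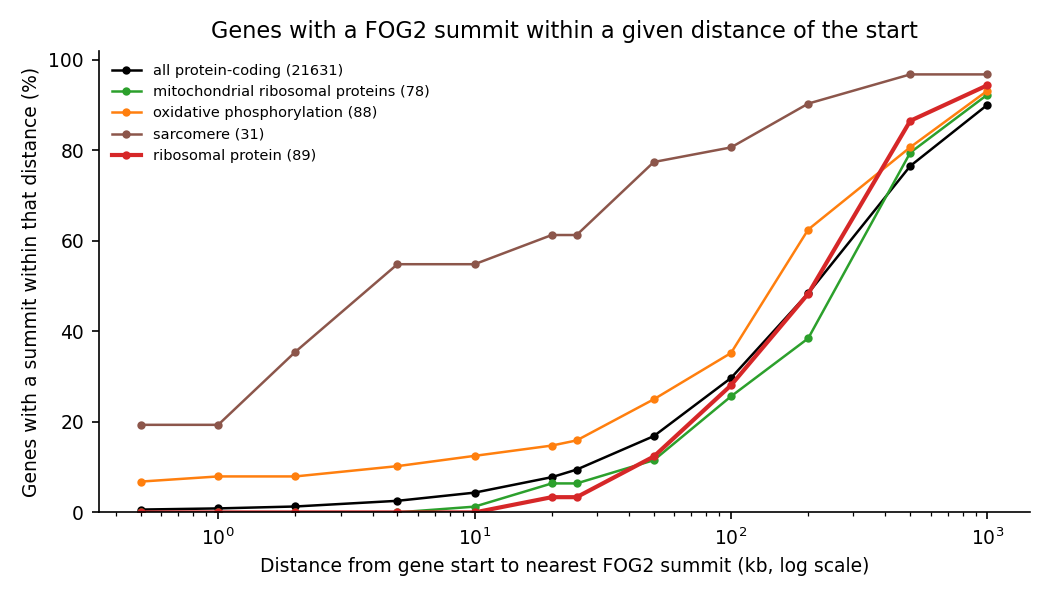
Percentage of genes (vertical axis) with a FOG2 summit within a given distance of a gene start in kb (horizontal log axis), for ribosomal protein genes, 3 other gene lists and all protein-coding genes. Ribosomal protein genes stay at 0 up to 10 kb and come near all genes at 100 kb, where 28.1% have a summit against 29.7%.

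The stretch of genome that a nearest-gene rule allots to a gene bears on such counts, and it was small here. Ribosomal protein genes were short, with a median body of 3.18 kb against 17.3 kb, and had a median of 5 coding genes within 100 kb against 4. Their territory, the stretch nearer to a gene body than to any other within 100 kb, had a median of 12 kb against 45 kb. With all genes cut into 3 equal classes of territory, 67 of the 89 fell into the smallest, where 1.91% of all protein-coding genes had an assigned summit, 12 into the middle class (7.5%) and 10 into the largest (31.3%). The counts with a summit were 0 of 67, 0 of 12 and 2 of 10. With 10 equal classes the all-gene rates from the smallest territory up were 1.2%, 1.8%, 2.27%, 3.47%, 6.56%, 8%, 12.3%, 18.5%, 28.7% and 53.1%, and the classes held 38, 21, 7, 5, 3, 3, 2, 9, 1 and 0 ribosomal protein genes. Both genes with a summit were among the 9 in the eighth class. At the rates of the 3 classes 5.32 of 89 genes would have had a summit, and at those of the 10 classes 3.80, against 2 observed and 12.1 at the rate of all genes. Among the 10604 genes no longer than the longest ribosomal protein gene (16.8 kb), 5.09% had an assigned summit, 1.01% had one inside the body and 0.707% within 1 kb of a start. Against genes of like territory the count of 2 was thus lower by 1.80 to 3.32 genes, and this difference was not tested.

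**Figure D3:**
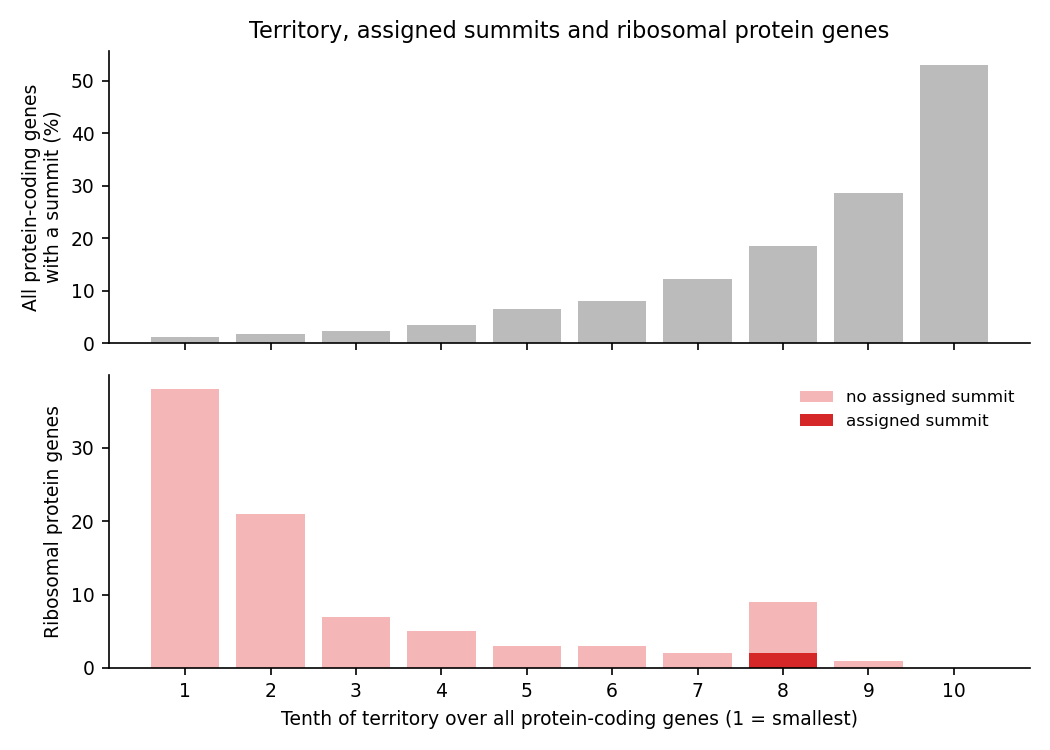
Upper panel, percentage of all protein-coding genes with an assigned FOG2 summit in each of 10 equal classes of territory, from 1.2% in the smallest to 53.1% in the largest. Lower panel, number of ribosomal protein genes in each class, with 38 and 21 of the 89 in the smallest 2 classes and both genes with a summit in the eighth.

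Promoter sequences are shown for the ribosomal protein genes that the counts turn on, none of which a peak overlapped. The windows run from 250 bases before to 20 after the annotated start, 5′ to 3′ on the strand of the gene, from RefSeq (GRCm38.p6). Capitals mark the motifs defined below and, at the start, a C with at least 4 pyrimidines after it. The first is Rps24 (chr14:24490428-24490697, plus strand), the only gene with an assigned summit that had an entry. Next come the 4 ribosome genes nearest to a summit that had an entry and no assignment, Rps28 (chr17:33824543-33824812, minus), Rpl27 (chr11:101441995-101442264, plus), Rpl26 (chr11:68901316-68901585, plus) and Rps23 (chr13:90922872-90923141, plus), and then the muscle paralog Rpl3l (chr17:24727576-24727845, plus).
Rps24: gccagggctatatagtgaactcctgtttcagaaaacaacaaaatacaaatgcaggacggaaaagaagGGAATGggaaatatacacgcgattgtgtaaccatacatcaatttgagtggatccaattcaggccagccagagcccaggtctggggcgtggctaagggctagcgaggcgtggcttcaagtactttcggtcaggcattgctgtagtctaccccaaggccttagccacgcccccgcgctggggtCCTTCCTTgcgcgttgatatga
Rps28: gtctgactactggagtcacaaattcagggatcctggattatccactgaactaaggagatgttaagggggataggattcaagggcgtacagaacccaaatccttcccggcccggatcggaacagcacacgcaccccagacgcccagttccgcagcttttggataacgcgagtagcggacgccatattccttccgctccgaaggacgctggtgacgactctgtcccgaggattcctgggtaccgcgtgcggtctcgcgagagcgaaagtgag
Rpl27: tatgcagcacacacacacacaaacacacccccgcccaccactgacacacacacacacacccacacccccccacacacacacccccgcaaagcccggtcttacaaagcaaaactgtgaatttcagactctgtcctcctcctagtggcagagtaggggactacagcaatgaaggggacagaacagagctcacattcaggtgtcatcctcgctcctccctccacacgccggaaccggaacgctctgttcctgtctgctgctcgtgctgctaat
Rpl26: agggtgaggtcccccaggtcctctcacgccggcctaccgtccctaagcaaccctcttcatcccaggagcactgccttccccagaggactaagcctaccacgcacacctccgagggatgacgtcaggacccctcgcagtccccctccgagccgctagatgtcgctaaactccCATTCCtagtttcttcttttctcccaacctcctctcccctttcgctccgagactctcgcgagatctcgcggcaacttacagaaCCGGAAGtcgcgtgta
Rps23: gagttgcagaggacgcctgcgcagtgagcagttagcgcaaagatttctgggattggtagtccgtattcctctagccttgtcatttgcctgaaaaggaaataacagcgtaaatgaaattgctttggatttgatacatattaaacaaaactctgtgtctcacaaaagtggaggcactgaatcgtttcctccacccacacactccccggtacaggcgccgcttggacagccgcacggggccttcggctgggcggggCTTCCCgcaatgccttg
Rpl3l: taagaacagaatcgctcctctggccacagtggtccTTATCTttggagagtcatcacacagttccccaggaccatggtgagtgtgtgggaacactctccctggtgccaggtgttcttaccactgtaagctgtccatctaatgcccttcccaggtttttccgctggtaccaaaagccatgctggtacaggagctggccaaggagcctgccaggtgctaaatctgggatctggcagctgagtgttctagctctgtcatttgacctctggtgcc

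For contrast, promoters of oxidative phosphorylation and sarcomere genes follow. From each list they are the 2 genes of highest fold among those with a RefSeq promoter entry whose window, taken to 50 bases after the start, a FOG2 peak overlapped. The Atp5e peak lies wholly downstream of the 20 bases printed after the start. Atp5e (chr2:174464082-174464351, minus strand), a subunit gene of ATP synthase, had a 7.11-fold peak with 12 fragments (6.20 to 21.0) and its summit 80 bases after the start. Ndufa4 (chr6:11907431-11907700, minus), which encodes a small protein of the respiratory chain, had a 6.53-fold peak with 17 fragments (9.90 to 27.2) and its summit 103 bases after the start. Ankrd1 (chr19:36119825-36120094, minus), a stress-responsive sarcomere gene, had a 26.5-fold peak with 74 fragments (58.1 to 92.9), with its summit at -397 bases from the start. Myl3 (chr9:110763428-110763697, plus), a ventricular myosin light chain gene, had a 9.37-fold peak with 20 fragments (12.2 to 30.9) and its summit 159 bases after the start.
Atp5e: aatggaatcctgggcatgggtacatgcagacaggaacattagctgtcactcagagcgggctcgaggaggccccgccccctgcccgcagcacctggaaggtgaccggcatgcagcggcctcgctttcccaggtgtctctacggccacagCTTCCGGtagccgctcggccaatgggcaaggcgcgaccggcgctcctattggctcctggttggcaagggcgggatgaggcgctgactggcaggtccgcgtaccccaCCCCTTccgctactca
Ndufa4: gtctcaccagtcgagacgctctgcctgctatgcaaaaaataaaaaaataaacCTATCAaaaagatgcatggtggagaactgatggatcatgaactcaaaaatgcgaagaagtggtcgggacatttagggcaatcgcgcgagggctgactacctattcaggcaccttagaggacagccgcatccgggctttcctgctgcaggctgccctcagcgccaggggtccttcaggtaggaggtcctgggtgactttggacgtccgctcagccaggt
Ankrd1: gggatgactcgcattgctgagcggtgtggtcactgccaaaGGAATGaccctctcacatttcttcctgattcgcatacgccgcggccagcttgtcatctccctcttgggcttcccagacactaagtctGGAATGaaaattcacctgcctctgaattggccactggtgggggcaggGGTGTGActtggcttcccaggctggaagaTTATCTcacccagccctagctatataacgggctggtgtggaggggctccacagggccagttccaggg
Myl3: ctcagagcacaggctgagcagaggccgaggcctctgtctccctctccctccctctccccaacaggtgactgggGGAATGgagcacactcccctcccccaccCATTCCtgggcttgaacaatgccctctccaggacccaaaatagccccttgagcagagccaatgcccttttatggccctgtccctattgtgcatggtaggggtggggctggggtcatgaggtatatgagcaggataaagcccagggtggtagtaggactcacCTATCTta

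Motif letters were counted on both strands in windows from 250 before to 50 after a start. The GATA spelling was AGATAA, with T also allowed as its first base and G as its last. The T-box spelling was GGTGTGA and the TEAD spelling was GGAATG. For ETS factors it was CCGGAAG and for YY1 it was AAGATGGC. The E-box spelling was CACGTG and the TATA spelling was TATAAA. None of these spellings contains another. Windows were held for 57 of the 77 genes left after the 12 paralogs and name-sharing genes were set aside, with 67 windows in all, since a gene can have several starts. The comparison was with 21045 windows of 17274 protein-coding genes and with the 89 windows (of 83 genes) that a FOG2 peak overlapped, which were 0.423% of all. None of the 81 windows of the ribosomal set as a whole was overlapped by a peak.

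ETS and YY1 letters were more frequent in ribosomal protein promoters than in all promoters. GATA, TEAD and T-box letters were somewhat less frequent, by a few windows each, and these small gaps were not tested. For ETS, YY1, TEAD and T-box letters the profile was not particular to ribosomal protein promoters. Mitochondrial ribosomal protein windows held these letters in 34.7%, 16%, 10.7% and 0 of 75, in that order. Oxidative phosphorylation windows held them in 22.7%, 13.3%, 10.7% and 0 of 75. For GATA letters these lists lay near all windows, but a gap of few windows does not make the lower ribosomal share a particular trait. GATA letters were in 25.3% of mitochondrial ribosomal protein windows and 28% of oxidative phosphorylation windows, against 25.8% of all windows. The ETS spelling was present in 25 of 67 windows (37.3%), against 11.7% of all windows, and that of YY1 in 7 (10.4%) against 3.07%. A C followed by 4 pyrimidines, beginning within 5 bases of the start, was found in 29 (43.3%) against 18.7%. It was also in 29.3% of oxidative phosphorylation windows and 22.7% of mitochondrial ribosomal protein windows. A C stood at the annotated start itself in 21 ribosomal protein windows (31.3%), against 13.9% of all. GATA spellings were in 14 of 67 windows (20.9%), 25.8% of all windows and 44 of the 89 windows with a peak (49.4%). Among the genes with GATA letters and no peak were Rpl4, Rpl5, Rpl10, Rpl37, Rps4x and Rps6. TEAD letters were in 6 windows (8.96%), against 13.5% of all and 19.1% of those with a peak. T-box letters were in 0 of 67 windows, 3.67% of all and 4.49% of those with a peak. The median GC content was 58.3% in ribosomal protein windows, 56.7% in all and 57.0% in those with a peak. E-box letters were in 8 windows (11.9%), against 7.91% of all, and TATA letters in 6 (8.96%), against 12.7%. These are counts of letters without a test, and a match is not a bound site.

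**Figure D4:**
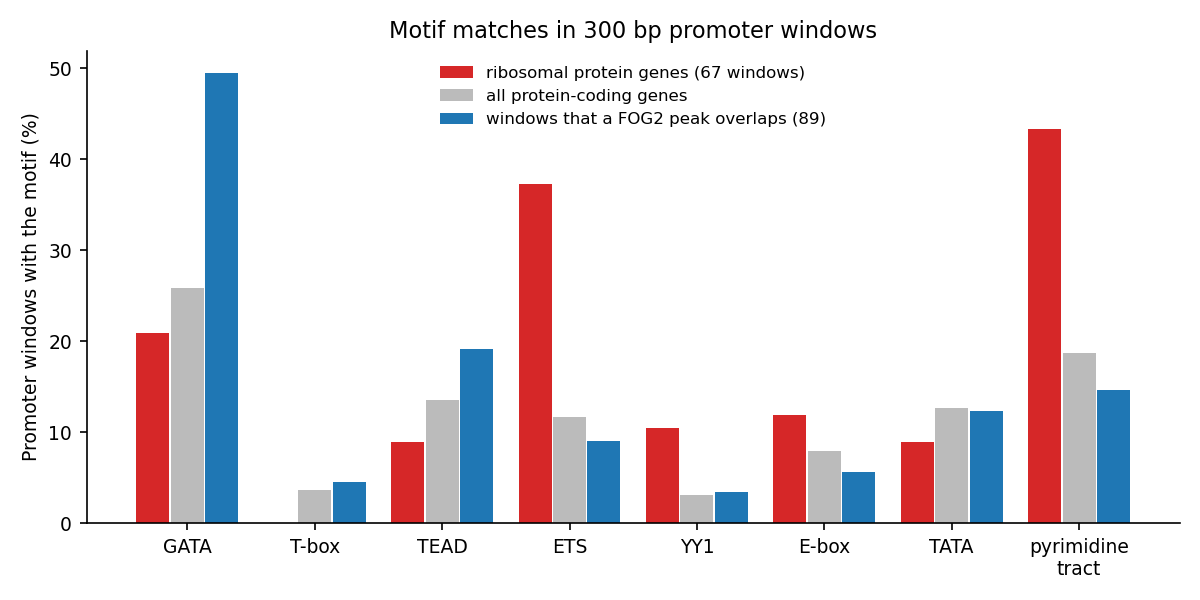
Percentage of promoter windows of 300 bp that hold each motif, for ribosomal protein genes, all protein-coding genes and windows that a FOG2 peak overlaps. ETS letters and the pyrimidine tract at the start stand highest in ribosomal protein genes (37.3% and 43.3%), and GATA letters in windows with a peak (49.4%).

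Other genes of translation had assigned summits at a lower share than the 13.6% of all protein-coding genes, but in numbers near those of genes of like territory. Of 39 translation factor genes 3 had one assigned (7.69%), namely the elongation factor gene Eef1a1 (8.49-fold, 24.9 kb from the gene), Eif4g2 (8.23-fold, 58.7 kb) and Eif3h (6.02-fold, inside the gene). Of 51 ribosome assembly genes 2 had one (3.92%), the rRNA acetyltransferase gene Nat10 (13.8-fold, inside) and Rrp1 (6.21-fold, 0.801 kb outside). Of 78 mitochondrial ribosomal protein genes 5 had one (6.41%), with Mrpl23 (29.2-fold, 39.8 kb from the gene), Mrps28 (9.02-fold, inside), Mrpl36 (8.70-fold, 4.92 kb) and Mrps23 (7.77-fold, 18.3 kb) highest. None of the genes on these 3 lists had a summit within 1 kb of a start, against 0.888% of all protein-coding genes. At that share few genes on lists of this size would have one. At the rates of the 10 territory classes, 2.998, 3.31 and 4.85 genes of these lists, in that order, would have had an assigned summit. The observed counts were 3, 2 and 5 beside these.

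Lists of other broadly active genes were small and their counts near those of their territory. A summit was assigned to 1 of 32 proteasome genes (Psmd7, 8.19-fold, 45.3 kb from the gene), to 0 of 8 chaperonin genes and to 0 of 12 RNA polymerase II subunit genes, beside 1.87, 0.278 and 0.276 at the rates of the 10 territory classes. None of the genes on these 3 lists had a summit within 1 kb of a start, against 0.888% of all protein-coding genes. Lists this small would hold hardly any such gene at that share. The median distances from gene body to nearest summit were 179, 226 and 216 kb, near the 206 kb of ribosomal protein genes.

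Oxidative phosphorylation and sarcomere genes differed from ribosomal protein genes in where their summits lay. Of 88 oxidative phosphorylation genes, which were also short (median 7.11 kb) and of small territory (16.5 kb), 11 had an assigned summit against 4.98 at the rates of the 10 territory classes. In 7 of 88 (7.95%) a summit lay within 1 kb of a start, against 0.888% of all genes. Those 7 were Atp5e, Atp5g3, Cox6a2, Cox7a1, Ndufa1, Ndufa4 and Ndufa6, with either gene end taken as the start of Cox6a2, and the highest folds on the list were at Ndufs4 (18.6-fold, inside), Ndufs6 (14.5-fold, 20.9 kb from the gene), Cox6a2 (10.9-fold) and Ndufa1 (8.70-fold). Cox6a2 and Cox7a1 encode muscle forms of cytochrome oxidase subunits. Of 31 sarcomere genes 21 had an assigned summit, against 4.18 at the rates of the 10 territory classes, led by Ankrd1 (26.5-fold), Tnni1 (22.9-fold), Pdlim5 (13.6-fold) and Cryab (11.6-fold). In 6 of 31 a summit lay within 1 kb of a start, in Ankrd1, Csrp3, Myh6, Myl3, Tcap and Tnni3. Of 14 mature haematopoietic genes 1 had an assigned summit (Cd3e, 5.04-fold, 3.69 kb from the gene). This count was near the 1.17 at the rates of the 10 territory classes. The differences between lists were not tested. Expression and chromatin accessibility of the lists were not measured, so genes of equal activity could not be compared.

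**Figure D5:**
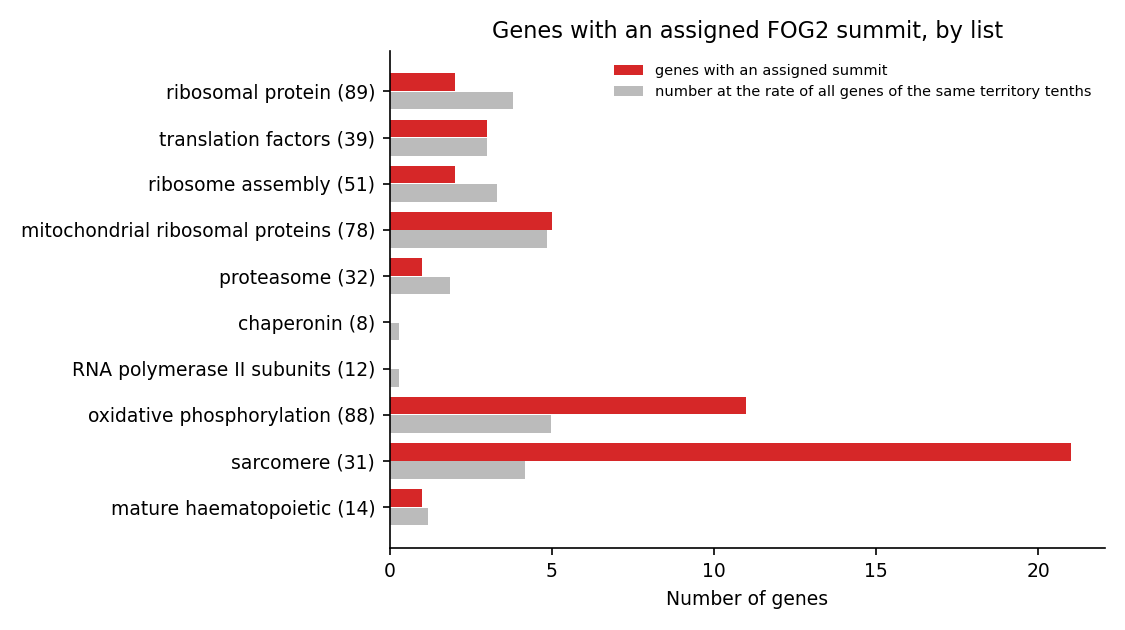
Number of genes with an assigned FOG2 summit in each list (red) beside the number at the rate of all protein-coding genes in the same 10 classes of territory (grey), with list sizes in parentheses. The ribosomal protein bar is at 2 of 89 beside 3.80, the oxidative phosphorylation bar at 11 of 88 beside 4.98, and the sarcomere bar at 21 of 31 beside 4.18.

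Loss of 1 copy of many ribosomal protein genes causes Diamond-Blackfan anaemia in humans, with heart malformations in some patients. Of 21 genes with this link, 2 had an assigned summit, and they were the 2 of the whole set, Rps29 and Rps24. This is 9.52% against 13.6% of all protein-coding genes, and 0.997 genes would have had one at the rates of the 10 territory classes. A count of 2 so near these values says nothing particular about the disease genes. The median distance of the 21 genes to a summit was 138 kb, and 10 of 21 had a summit within 100 kb, against 33.3% of all genes. None of the 21 had one within 10 kb, against 11.1% of all genes, and only 1 of all 89 ribosomal protein genes did.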

How the data were processed

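FOG2 occupancy was read from 1 peak list made from 2 pulldown libraries and 1 input library, grouped by their labels. The submitters' processing notes name Bowtie2 2.3.2, SAMtools 1.5, Picard and MACS2 2.1.1, with the build mm10. No settings of these tools were seen in the labels. Replicates were pooled and blacklisted regions removed by the authors, per the deposited peak names and file name, which also carry the word FLAG where the labels' protocols describe a streptavidin pulldown of biotin-tagged FOG2. For each peak the authors' caller wrote a fold, which is a ratio of pulldown over control at its summit. It also wrote a −log10 p and a −log10 q, both kept as the authors deposited them. The authors' score column repeats 10 times the −log10 q without decimals, in 6166 of 6166 peaks, and entered no result.

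Fragments at a summit were recovered as the whole number that gives both the fold, with 1 added to each side, and the −log10 p as a Poisson tail. The largest misfit was 0.000148, and in 83 peaks another number also lay within 0.001. The median summit held 12 fragments (95% Poisson interval 6.20 to 21.0). Library totals were not analysed here. Genes came from RefSeq (GRCm38.p6), starts from its promoter table, and territory from a 1 kb grid. A summit inside overlapping genes counted for each. Assignment, territory and recovery were tested on simulated data. Python 3.11.15, numpy 2.4.6, pandas 2.3.3 and scipy 1.17.1 were used.

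No tests were made, since a pooled list has no replicate values, and counts stand beside the same share over all genes. Named were all members with a summit, the nearest and farthest members, Rpl3l and Rps19bp1, and from each list the genes whose summits had the highest fold, at most 4. Rpl32l, Rpl37rt and Rps23rg1 were put with the paralogs after the gene table was seen. The members and lists were chosen with earlier results of these data known. Some named genes are not reported here. Alternatives covered peak strength, distance limits, gene biotypes, gene starts and the genes counted.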

Additional observations from a re-analysis of the deposited data

How the results depend on the processing

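In all, 28 alternatives were run for 5 results, and 22 stayed within 1.5 times the main value. The count of 2 ribosomal protein genes with an assigned summit became 0 within 10 kb, 0 within 20 kb and 0 with genes of any biotype, 4 with the nearest gene start, and 25 when every gene within 100 kb of a summit was counted. The 4 were Rps29, Rps24, Rpl27a and Rps27rt. The median strength of the 2 summits was 7.91 as fold and about 13 as fragments, which is another scale. The count of 0 within 1 kb of a start was 0 in all 8 alternatives run for it, but most could not have changed it. Stricter peak limits, fewer genes or a 0.5 kb window could only keep a count of 0. Peak intervals, a 5 kb window and either gene end could have raised it, and it stayed 0. No paired analysis was possible because the replicates were pooled before peak calling, and for the same reason no replicate could be left out. At a median of 12 fragments a summit, occupancy too weak to be called cannot be told from none.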

Other observations

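Many ribosomal protein genes carry small nucleolar RNA genes in their introns, which guide chemical modification of ribosomal and other RNAs. By annotation, 30 of the 89 genes held at least 1 snoRNA gene within the body (33.7%), with 59 in all and 5 in Rpl4, against 1.72% of all protein-coding genes. None of these 30 genes had a summit inside the body, which follows from the count of 0 for all 89 genes. The share was 8.31% of all protein-coding genes and 1.01% of those no longer than the longest ribosomal protein gene. The count thus says nothing particular about genes that hold snoRNA genes.

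Ribosomal protein mRNAs have been copied back into the genome many times, leaving processed pseudogenes whose sequence is close to the exons of the parent gene. Of 318 pseudogenes named after a ribosomal protein gene, 0 had a FOG2 summit inside or within 1 kb, against 45 of 9852 genes annotated as pseudogenes (0.457%). At that share few of the 318 would have one, so the count of 0 says nothing particular about these pseudogenes. The nearest was Rpl19-ps10, 1.82 kb from a summit of 3.61-fold with 7 fragments. The labels do not say how reads matching several copies were placed, and its part in the counts over exons was not tested.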
